A study of Mus musculus with 6 samples.

Results

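Macrophage genes were followed in the 6 RNA-seq libraries of mouse erythroblasts. The set is a fixed list of 36 gene symbols, named for the macrophages that sit at the centre of erythroblastic islands in fetal liver, and all 36 were found among the 17691 genes of the count table, of which 12283 were tested. A filter on low counts left 33 of the 36 in the tests. Erythroblasts are the nucleated precursors of red blood cells. Fetal livers of C57BL/6J mice were the source, and cells that carry TER119, an antigen of late erythroid stages, had been removed before 30 h of growth with erythropoietin. The untreated group of 3 libraries received nothing further. The CDs group of 3 libraries received carbon dots, nanometre-sized carbon particles made from the plant Codonopsis pilosula, at 1 ug/ml for the same 30 h. The age of the fetuses, any pooling and whether the replicates were separate cultures are not given in the sources used here, so p-values rest on a spread between samples that may be technical.

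In an erythroblastic island a macrophage holds developing erythroblasts on its surface through adhesion molecules, feeds them and engulfs the nuclei they expel. Such macrophages depend on the growth factor receptor CSF1R, carry scavenger and Fc receptors, and digest what they take up in lysosomes loaded with cathepsins. The transcription factor PU.1, encoded by Spi1, is a known master regulator of macrophage genes and binds purine-rich sequences around GAGGAA. VCAM1, CD163, TIM4 (encoded by Timd4), CLEC4F and the transcription factor SPI-C (encoded by Spic) are markers used for island or resident liver macrophages.

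As context for a set of genes that moved together, RefSeq promoter windows (GRCm38.p6) were available for 26 of the 36 genes. The 250 bases before the start were read in each of their 30 windows. The letters GAGGAA, on either strand, occurred in 16 of these 30 windows (53.3%), against 23.3% of all 32851 windows of the same length and 22.8% of the 12575 windows of tested genes. The longer GAGGAAGT, which contains the shorter motif, occurred in 3 of the 30 (C1qc, Fcgr4 and Havcr2) and in 2.44% of all windows. A match of letters is a description and not a binding site. Shown are C1qc and Ctss, which followed the common pattern described below, Mrc1, which had the largest fold change, and Cd5l, which departed from the pattern, 5′ to 3′ on the gene's strand with each GAGGAA or its reverse complement TTCCTC in capitals. The windows are chr4:136892915-136893164 for C1qc (minus strand), chr3:95526536-95526785 for Ctss (plus strand), chr2:14229164-14229413 for Mrc1 (plus strand) and chr3:87357631-87357880 for Cd5l (plus strand).
C1qc: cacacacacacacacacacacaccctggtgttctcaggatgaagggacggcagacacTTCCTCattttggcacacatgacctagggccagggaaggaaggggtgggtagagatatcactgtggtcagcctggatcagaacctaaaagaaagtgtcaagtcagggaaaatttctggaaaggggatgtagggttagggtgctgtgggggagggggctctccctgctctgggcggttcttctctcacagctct
Ctss: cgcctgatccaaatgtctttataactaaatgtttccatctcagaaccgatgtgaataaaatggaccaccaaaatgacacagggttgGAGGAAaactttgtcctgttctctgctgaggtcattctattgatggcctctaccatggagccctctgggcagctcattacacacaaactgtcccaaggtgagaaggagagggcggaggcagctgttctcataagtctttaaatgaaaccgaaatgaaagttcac
Mrc1: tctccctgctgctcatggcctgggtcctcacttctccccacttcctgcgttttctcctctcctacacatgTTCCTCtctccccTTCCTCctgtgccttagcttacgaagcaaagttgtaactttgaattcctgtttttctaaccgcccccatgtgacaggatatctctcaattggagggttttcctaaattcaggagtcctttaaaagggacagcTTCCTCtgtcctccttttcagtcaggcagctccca
Cd5l: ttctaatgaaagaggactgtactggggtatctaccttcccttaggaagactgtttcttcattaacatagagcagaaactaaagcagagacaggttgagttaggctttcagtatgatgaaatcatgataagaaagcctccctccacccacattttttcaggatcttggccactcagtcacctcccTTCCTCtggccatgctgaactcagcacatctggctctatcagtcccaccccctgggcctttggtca
All 4 windows hold the motif at least once, and that of Mrc1 holds it 3 times. The windows of Lgmn, Mpeg1, Cx3cr1, Ms4a7 and Itgax, not shown, hold none. Overlapping windows of Fcgr3 hold the same motif. Counted by gene, 15 of 26 (57.7%) had the motif, against 25.9% of all genes with a window.

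Levels are given as CPM, the count as a share of the library's TMM-scaled total, always for libraries 1, 2 and 3 in that order. Over the 36 genes the summed level was 1199.9, 1943 and 12657 CPM untreated against 1834, 4964 and 17208 CPM with CDs. This was 0.12% of the counts in the lowest library, untreated 1, and 1.72% in the highest, CDs 3. The libraries numbered 3 were the highest of both groups, and the groups overlapped. Group means were 5267 ± 6411 CPM (SD, n = 3) untreated and 8002 ± 8125 CPM (SD, n = 3) with CDs, a ratio of 1.52 that lies within the spread between replicates (two-sided exact permutation p = 0.6, smallest possible 0.1). The ratio was 0.645 without CDs 3 and 5.09 without untreated 3. In bulk RNA, fewer cells of a type and less RNA per cell cannot be told apart.

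**Figure D1:**
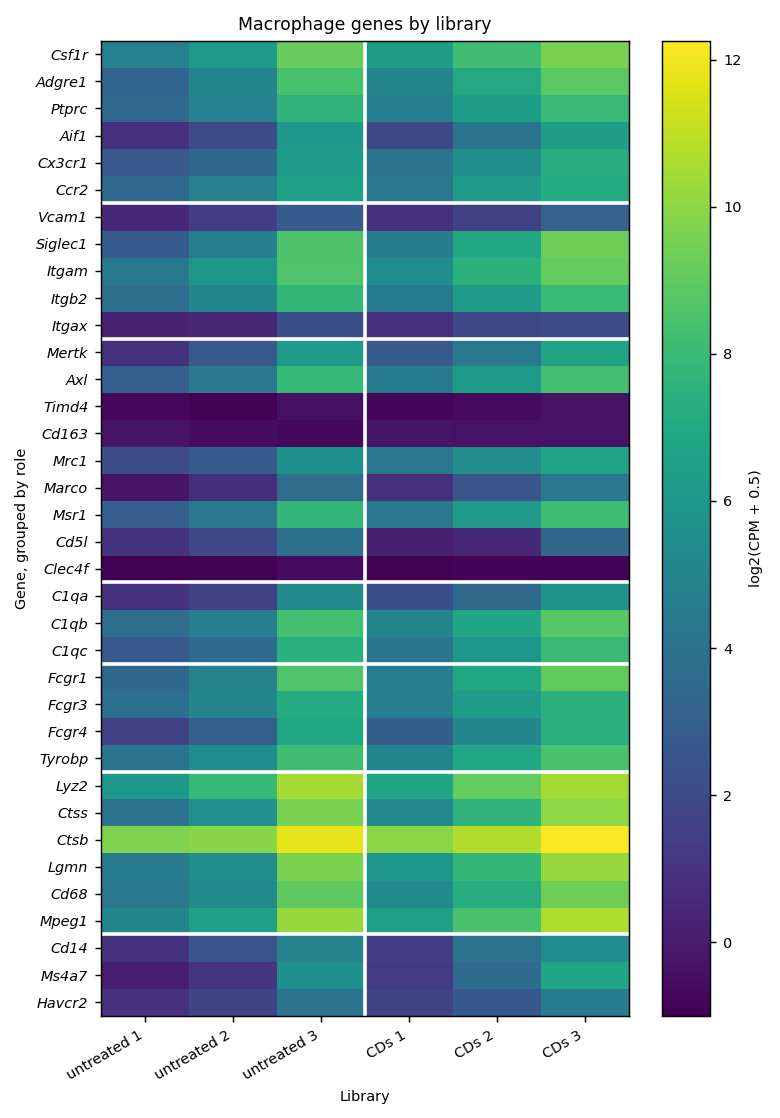
Level of each of the 36 macrophage genes (rows, grouped by role with white lines between groups) in each library (columns), as log2(CPM + 0.5). Columns brighten from untreated 1 to untreated 3 and from CDs 1 to CDs 3 in nearly all rows, while Timd4, Cd163 and Clec4f stay dark throughout.

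The label was checked against the markers first. Clec4f, a lectin of liver-resident Kupffer cells, had 0 counts in untreated 1, untreated 2 and CDs 1 and at most 3 counts in the others. Timd4, a receptor for phosphatidylserine on dying cells, had 0 to 6 counts per library, and Cd163, the receptor for haemoglobin bound to haptoglobin, had 2.03 to 6.39 estimated counts. These 3 genes did not pass the filter on low counts, and a level of 3 counts or fewer is at the floor that counting error allows. Spic, which did not pass this filter either, had 0, 0.0512 and 0.733 against 0, 0.302 and 1.69 CPM. Vcam1, the adhesion molecule that binds integrins of erythroblasts, was detected at 0.878, 2.15 and 6.84 CPM untreated against 1.32, 2.62 and 8.49 CPM with CDs. General macrophage genes were far more abundant, with Csf1r at a mean of 305 CPM and Adgre1 (F4/80) at 171 CPM over all libraries. Other genes linked with island or resident macrophages were present, Siglec1 at up to 641 CPM and Maf at up to 307 CPM, both in CDs 3. Both were lowest in untreated 1, where Siglec1 stood at 6.87 CPM. Cd5l, a gene of tissue macrophages, was low, from 0.629 CPM in CDs 1 to 14.6 CPM in untreated 3. The markers linked with island or resident liver macrophages were thus mixed. Timd4, Cd163 and Clec4f were at or near 0, Spic, Vcam1 and Cd5l were low, and Siglec1 and Maf were higher. The set is called macrophage genes here. The cells labelled erythroblasts carried erythroid RNA, with 11 erythroblast genes summing to between 57154 CPM (CDs 3) and 73517 CPM (untreated 1).

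Growth and identity genes were lowest in untreated 1 and highest in CDs 3. Gene coordinates below count from 1 in GRCm38.p6. Csf1r, the receptor for the macrophage growth factors CSF1 and IL-34, measured 28, 74.3 and 571 CPM untreated against 82.5, 291 and 784 CPM with CDs. Adgre1, the F4/80 antigen, measured 9.61, 30.9 and 336 CPM untreated against 32.7, 129.8 and 488 CPM with CDs. Ptprc, the leukocyte antigen CD45, measured 11.3, 29.2 and 194 CPM untreated against 25.2, 83.6 and 267 CPM with CDs. In all 3 genes untreated 1 was the lowest library and CDs 3 the highest, and untreated 3 lay above CDs 1 and CDs 2, so the groups overlapped. Aif1, an actin-binding protein of activated macrophages, measured 1.29, 3.68 and 66.7 CPM untreated against 3.03, 16.5 and 82 CPM with CDs. Cx3cr1, the fractalkine receptor, measured 5.91, 10.4 and 74.3 CPM untreated against 16, 47.3 and 151 CPM with CDs. Ccr2, the chemokine receptor of inflammatory monocytes, measured 11.2, 26.5 and 95.5 CPM untreated against 18.9, 70.4 and 139.9 CPM with CDs. The 6 genes followed the same order of libraries at the top, CDs 3 above untreated 3 above CDs 2. Of the 6, Ccr2 had the smallest ratio of untreated 3 to untreated 1 (8.53-fold). Aif1 had the largest (51.7-fold), which rests on 25 counts in untreated 1.

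Adhesion genes split by level. Siglec1 (sialoadhesin), a sialic acid-binding receptor of island macrophages, measured 6.87, 26 and 376 CPM untreated against 23.3, 117 and 641 CPM with CDs. Itgam, the CD11b integrin subunit, measured 20.2, 63.6 and 387 CPM untreated against 44.5, 182 and 554 CPM with CDs. Itgb2, the CD18 subunit that pairs with it, measured 13.3, 33.7 and 222 CPM untreated against 22.3, 77.8 and 251 CPM with CDs. These 3 were high in both libraries numbered 3 and lowest in untreated 1. Vcam1 (values above) and Itgax, the CD11c subunit at 0.723, 0.819 and 4.3 CPM untreated against 1.32, 3.01 and 3.66 CPM with CDs, stayed under 10 CPM in all 6 libraries. Itgam and Itgax lie next to each other on chromosome 7, and some of their counts were not whole numbers, so a few reads were divided between genes.

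Genes for taking up dead cells, lipoproteins and other cargo included Mrc1, with the largest log2 fold change of the 33 tested genes, and Cd5l, with the lowest. Mertk, a receptor kinase for apoptotic cells, measured 1.45, 5.93 and 69.6 CPM untreated against 5.95, 19.2 and 107 CPM with CDs. Axl, a kinase of the same family, measured 8.01, 18.4 and 233 CPM untreated against 20.9, 75.5 and 311 CPM with CDs. Msr1, the class A scavenger receptor, measured 7.65, 18.7 and 220.0 CPM untreated against 19.9, 68.1 and 281 CPM with CDs. Between untreated 1 and untreated 3 they differed by 28.8-fold (Msr1) to 48.1-fold (Mertk). Mrc1, the mannose receptor CD206 (Entrez 17533, chromosome 2, 14229414 to 14332023), measured 3.88, 6.6 and 50.2 CPM untreated against 17.9, 46 and 106 CPM with CDs, and here each CDs library lay above its same-numbered partner by more than 2-fold. Marco, another scavenger receptor, ranged from 0.31 CPM in untreated 1 to 19.1 CPM in CDs 3. Cd5l, a secreted protein of tissue macrophages that protects them from death and modulates lipid handling (Entrez 11801, chromosome 3, 87357881 to 87371074), measured 1.4, 3.22 and 14.6 CPM untreated against 0.629, 0.956 and 9.88 CPM with CDs. Cd5l was the one gene of the 33 with a mean of at least 1 CPM that was lower in the CDs library of all 3 pairs.

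The 3 chains of complement C1q, the protein that tags cells for engulfment, are encoded side by side on chromosome 4. C1qa measured 1.4, 2.61 and 39 CPM untreated against 4.18, 11.4 and 53 CPM with CDs. C1qb (Entrez 12260, chromosome 4, 136880126 to 136886200) measured 12.7, 25.2 and 319 CPM untreated against 30.8, 116 and 456 CPM with CDs. C1qc measured 6.1, 11.9 and 178 CPM untreated against 17.2, 62.7 and 264 CPM with CDs. The chains kept one order in every library, C1qb above C1qc above C1qa, also per length (means of 156, 88.8 and 17.8 FPKM over the 6 libraries).

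Among Fc receptors, which bind antibody-coated particles, Fcgr1, the high-affinity receptor CD64, measured 10.4, 29.9 and 389 CPM untreated against 26.3, 118 and 539.7 CPM with CDs. Fcgr3 measured 14, 32.4 and 145 CPM untreated against 25.7, 76.1 and 180.1 CPM with CDs, and Fcgr4 measured 2.43, 7.83 and 121 CPM untreated against 7.04, 34.9 and 172 CPM with CDs. Tyrobp, the adaptor DAP12 that carries the signal of many myeloid receptors (Entrez 22177, chromosome 7, 30413782 to 30417582), measured 16.6, 43.7 and 295 CPM untreated against 31.1, 119 and 355 CPM with CDs. Of the 3 receptors Fcgr3 differed least, 10.4-fold from untreated 1 to untreated 3, against 37.3-fold for Fcgr1 and 49.7-fold for Fcgr4. Fcgr3 is near-identical in part to Fcgr2b (2.41 CPM in untreated 1 and 57.6 CPM in CDs 3), and its counts were not whole, so reads could be divided between them.

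Lysosomal genes held most of the counts of the set. Ctsb, cathepsin B (Entrez 13030, chromosome 14, 63122462 to 63145923), measured 842, 954 and 3488 CPM untreated against 1004, 1685 and 4903 CPM with CDs. Ctss, cathepsin S, measured 16, 52.2 and 763 CPM untreated against 37.5, 194 and 1021 CPM with CDs. Lgmn, the protease legumain, measured 22.4, 44.6 and 785 CPM untreated against 62.8, 218 and 1180.5 CPM with CDs. Ctsb was already abundant in untreated 1, where it made up 70.2% of the summed level, against 28.5% in CDs 3, whereas Ctss and Lgmn were at 16 and 22.4 CPM there. Lyz2, macrophage and neutrophil lysozyme (Entrez 17105, chromosome 10, 117277541 to 117282272), measured 66.3, 239 and 1434 CPM untreated against 111, 563 and 1402 CPM with CDs. Cd68, a lysosomal membrane protein used to stain macrophages, measured 19.4, 40.8 and 494 CPM untreated against 38.3, 150.5 and 661 CPM with CDs. Mpeg1, the pore-forming perforin-2, measured 34.4, 94.2 and 1175 CPM untreated against 92.5, 345 and 1640.0 CPM with CDs. Lyz2 was the only one of these 6 that did not have its highest value in CDs 3. Lyz2 shares near-identical sequence with Lyz1 (6.68 CPM in untreated 1 and 114 CPM in CDs 3), and Ctsb overlaps Fdft1 in the annotation. Fdft1, an enzyme of cholesterol synthesis, measured 71.2, 74.4 and 62.9 against 174, 144 and 81 CPM, higher with CDs in all 3 pairs, and its part in the Ctsb ratios was not tested. No strand-marking step is described for these libraries, and reads of Ctsb and Fdft1 in their overlap cannot be told apart.

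The other surface proteins were low in the libraries numbered 1. Cd14, the co-receptor for bacterial lipopolysaccharide, measured 1.45, 5.06 and 30.1 CPM untreated against 2.29, 16.3 and 43.5 CPM with CDs. Ms4a7, a tetraspan membrane protein of mature macrophages, measured 0.568, 1.48 and 50.0 CPM untreated against 1.89, 12.1 and 111 CPM with CDs. Havcr2 (TIM-3), an inhibitory receptor, had a mean of 8.44 CPM, from 1.33 CPM in untreated 1 to 21.4 CPM in CDs 3. Among the 33 genes with a mean of at least 1 CPM, Ms4a7 had the widest span, 88-fold between untreated 1 and untreated 3. That span rests on 11 counts in untreated 1.

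Per length, the mean over the 6 libraries was highest for Ctsb (1169 FPKM), followed by Lyz2 (621), Tyrobp (269), Ctss (265), Lgmn (207), Cd68 (193), C1qb (156) and Mpeg1 (132 FPKM). It was lowest for Clec4f (0.0167), Cd163 (0.060) and Timd4 (0.127 FPKM). Each gene varied widely over libraries: the mean of Tyrobp was 220.2 ± 289 FPKM (SD, n = 3) over the untreated libraries, and that of Ctss 209 ± 319.6 FPKM (SD, n = 3). The genes share this spread, so it does not measure how sure their order is. Within each of the 6 libraries Ctsb stood above Lyz2 and Lyz2 above Tyrobp. Tyrobp stood above Ctss in untreated 1 (29.6 against 11.8 FPKM) but below it in CDs 3 (680 against 792 FPKM). Counts and FPKM of the 32 genes with at least 10 counts in every library followed each other over the libraries with a root mean square deviation of 9.45e-04 to 0.0626 on the log2 scale, the largest for Msr1, and none exceeded the limit of 0.117 that 99% of 9238 genes stay under.

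A common profile over libraries was taken as the median, over the 33 genes with a mean of at least 1 CPM, of log2(CPM + 0.5) centred on each gene's mean. Relative to untreated 1 it stood 2.18-fold higher in untreated 2, 22.7-fold in untreated 3, 2.25-fold in CDs 1, 7.9-fold in CDs 2 and 28.1-fold in CDs 3. Untreated 2 and CDs 1 were close to each other, and the span within the untreated group was wider than the pair ratios given below. All 33 genes were higher in untreated 3 than in untreated 1, by 4.14-fold (Ctsb) to 88-fold (Ms4a7) with a median of 25.2-fold, and 29 by at least 10-fold, against 7.61% of all genes tested. Of the 33, 15 had all 6 libraries in exactly the order of the common profile, against 9.21% of all genes tested. That order was taken from the same 33 genes, which raises their own share, so the comparison with all genes tests nothing. The first principal component of the tested genes outside the set, which took 88.5% of their variance, scored -85.9, -45.7 and 73.7 untreated against -51.4, 14.6 and 94.7 with CDs. It ranked the libraries in nearly the same order, with untreated 2 and CDs 1 exchanged.

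**Figure D2:**
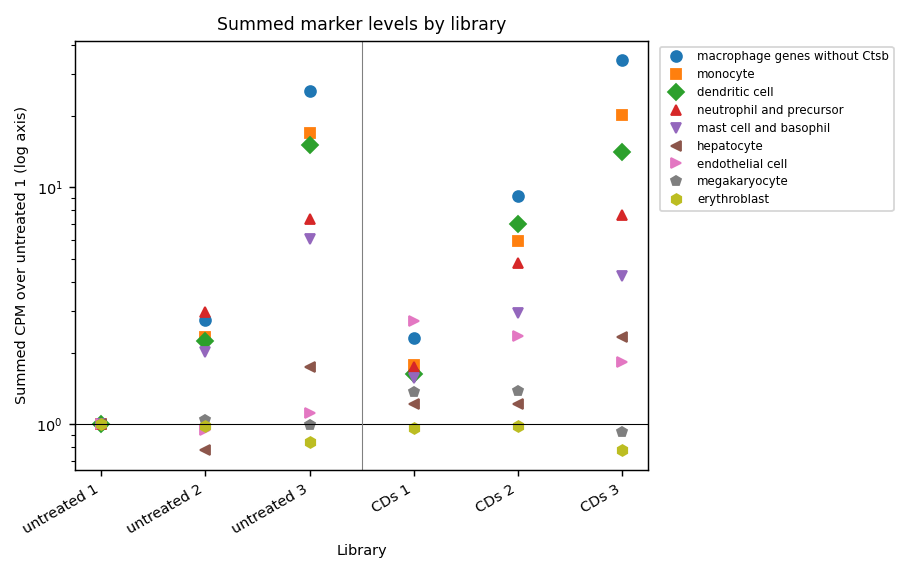
Summed CPM of the macrophage genes without Ctsb and of 8 marker lists in each library (horizontal), divided by the sum of the same list in untreated 1 (vertical, log axis). Macrophage genes reach 25.6-fold in untreated 3, above monocyte and neutrophil markers, while erythroblast markers stay between 0.777-fold and 1-fold.

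Markers of other myeloid cells were also highest in the libraries numbered 3. The 10 monocyte markers summed to 96.7, 225 and 1638 CPM untreated against 172, 575 and 1953 CPM with CDs, led by Ly6c2, a surface antigen of inflammatory monocytes (5.54, 29.3 and 513 against 8.29, 71.4 and 436 CPM). The 15 neutrophil and precursor markers in the table, among them Ngp, Mpo and S100a9, summed to 303, 905 and 2218 CPM untreated against 526, 1447 and 2309 CPM with CDs. They were 7.33-fold higher in untreated 3 than in untreated 1, against 25.6-fold for the macrophage genes without Ctsb and 16.9-fold for monocyte markers. Dendritic cell markers, led by Cd74, ran from 14.7 CPM in untreated 1 to 222 CPM in untreated 3, and mast cell and basophil markers from 38.9 to 235 CPM. Megakaryocyte (104 and 103 CPM) and lymphocyte markers (59.6 and 87.3 CPM) differed less between the same libraries. So did hepatocyte (299 and 521 CPM) and stellate markers (78.3 and 182 CPM). A mean under 1 CPM was found for 8 of 10 stellate and 4 of 7 lymphocyte markers in the table, so their sums rest on the few others. Endothelial markers had another order of libraries, summing to 183, 174 and 204 CPM untreated against 500.0, 433 and 336 CPM with CDs, a ratio of means of 2.26 with groups that did not overlap (two-sided exact permutation p = 0.1, the smallest possible). Most of that sum was Flt1, a VEGF receptor (158, 144 and 133 against 473, 391 and 252 CPM), while Tek, Lyve1, Emcn, Cldn5 and Ptprb stayed under 1 CPM. None of the monocyte or neutrophil markers was at 0 in all libraries. Siglech, Cd209a and Clec9a of dendritic cells and Fcer1a and Tpsb2 of mast cells stayed under 1 CPM. Erythroblast markers went from 73517 to 61665 CPM. Lyz2, Ptprc, Itgam, Itgb2, Fcgr3, Fcgr4, Tyrobp, Cd14, Ccr2 and Cx3cr1 are known to be expressed in monocytes or neutrophils too. The part of those cells in their levels was not tested.

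Genes around the set in macrophage pathways were counted in 4 lists. Of 14 macrophage transcription factors 13 were tested, and 12 of these were higher in the CDs library of all 3 pairs (all genes tested 30.3%). Spi1 measured 16.4, 35.3 and 219 CPM untreated against 31.6, 99.4 and 268 CPM with CDs. Maf, a factor of resident macrophages, measured 7.85, 16.3 and 172 CPM untreated against 22.9, 81.8 and 307 CPM with CDs. Cebpb, a broader myeloid and stress factor, measured 47.2, 54.8 and 155 against 49.7, 83.3 and 163 CPM. Spi1 and Maf differed more between untreated 1 and untreated 3 than Cebpb did. Of 20 genes of CSF1 receptor and TYROBP signalling 19 were tested and 16 were higher in all 3 pairs. Sirpa, the receptor for the CD47 signal, stood at 32.9, 80.0 and 699 against 82.9, 296 and 1008 CPM. Lilrb4a, an inhibitory receptor, stood at 15.9, 53.8 and 583 against 33.4, 155 and 680.3 CPM, and Fcer1g, the Fc receptor gamma chain, at 18.1, 50.3 and 449 against 38.5, 172 and 558 CPM. All 3 were lowest in untreated 1 and highest in CDs 3, as Csf1r was. Csf1, the ligand of CSF1R, measured 4.86, 15.1 and 53.3 against 7.15, 23.2 and 44.6 CPM, and the other ligand gene Il34 was under 1 CPM throughout. Of 22 lysosomal genes all were tested and all 22 were higher in all 3 pairs. Psap, the precursor of the saposins that help break down sphingolipids, stood at 252, 403 and 2571 against 348, 940.3 and 3247 CPM. Ctsd, cathepsin D, stood at 561, 649.6 and 1863 against 627, 1015 and 2629.8 CPM, and Grn, progranulin, at 47.9, 97 and 1056 against 105, 378 and 1536 CPM. Like Ctsb, Ctsd and Psap were already abundant in untreated 1. Of 25 island support and engulfment genes 23 were tested, 16 being higher and 4 lower in all 3 pairs (all genes tested 30.3% higher, 26.2% lower). The most abundant, Klf1, an erythroid factor needed in both cell types of the island, measured 735, 689 and 388 against 694, 590.0 and 285 CPM and was lowest where the macrophage genes were highest. Rac2, a GTPase of blood cells, measured 212, 241 and 439 against 237, 314 and 458 CPM. Lrp1, an engulfment receptor, measured 30.2, 64.8 and 577 against 81.1, 207 and 779.9 CPM. None of the genes in these 4 lists passed in edgeR without the replicate block, and none passed in edgeR or limma-voom with it. In DESeq2 with the block 10, 12, 15 and 8 passed as higher, and 2 of the island list as lower, in the order transcription factors, signalling, lysosome and island support (all genes tested 7.70% higher, 2.08% lower).

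Outside the set, 10 of 9221 genes with a mean of at least 5 CPM lay closest to the common profile, by root mean square difference of centred log2 values over the 6 libraries. They included Lrrc25 (0.062), Tlr1 (0.0666), Gbp9 (0.0785), Lpl (0.0862), Slfn2 (0.0897), Grn (0.0908), Fgd2 (0.0981), Entpd1 (0.0997) and Rgl1 (0.0998). Lpl, lipoprotein lipase, was the second most abundant of them at 25.9 CPM in untreated 1 and 707 CPM in CDs 3, after Grn.

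The comparison of CDs with untreated libraries asks whether macrophage RNA differed with treatment. In edgeR's quasi-likelihood test over 12283 genes 0 of the 33 tested macrophage genes passed an adjusted p of 0.05 (0.00% of all genes), and all 33 had an adjusted p = 0.994. None had an unadjusted p under 0.05 (all genes 1.03%), and without a block limma-voom (all genes 0.00%) and DESeq2 (all genes 0.114%) also called 0 of them. In this fit 32 of the 33 log2 fold changes were above 0 (all genes 51.9%), with a median of 0.67 against 0.01 for all genes, and standard errors ran from 0.83 to 2.03. Leaving out CDs 3 brought the median to -0.74, and leaving out untreated 3 to 3.23. It was 0.14 and 0.22 when untreated 1 or 2 was dropped, and 1.19 when CDs 1 was dropped. For 0 of the 36 genes did the groups not overlap, against 4.73% of all genes tested. Csf1r measured 224 ± 301 CPM (SD, n = 3) untreated and 386 ± 360.1 CPM (SD, n = 3) with CDs (log2 fold change of 0.78 ± 1.31, SE), and Lyz2 579.6 ± 745 CPM (SD, n = 3) untreated and 692 ± 655 CPM (SD, n = 3) with CDs (0.26 ± 1.33). Further log2 fold changes in this fit were 0.52 ± 0.83 for Ctsb, 0.59 ± 1.71 for Ctss, 0.78 ± 1.65 for Lgmn, 0.62 ± 1.52 for Cd68, 0.67 ± 1.58 for Mpeg1, 0.51 ± 1.30 for Tyrobp, 0.76 ± 1.50 for C1qb, 0.81 ± 1.55 for C1qc, 0.67 ± 1.62 for Fcgr1 and 0.56 ± 1.07 for Fcgr3, each smaller than its standard error.

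The replicate numbers were then used to pair the libraries. The check of the pairing, described with the processing, cannot show that same-numbered libraries shared a culture. Of the 33 genes 32 were higher in CDs 1 than in untreated 1 (all genes 56.3%), 32 were higher in CDs 2 than in untreated 2 (49.7%) and 30 were higher in CDs 3 than in untreated 3 (49.7%). Higher in all 3 pairs were 30 genes (all genes 30.3%), and 1, Cd5l, was lower in all 3 (all genes 26.2%). The median log2 ratio was 1.16 in pair 1, 1.87 in pair 2 and 0.47 in pair 3, that is 2.24-fold, 3.65-fold and 1.39-fold. The summed level of the set was higher by 1.53-fold, 2.56-fold and 1.36-fold, beside 1.74-fold, 1.6-fold and 1.04-fold for neutrophil markers and 1.78-fold, 2.55-fold and 1.19-fold for monocyte markers. Endothelial markers, most of them Flt1, had ratios of 2.73-fold, 2.49-fold and 1.64-fold, and the part of other cells in the ratios of the set was not tested. If CDs 1 and CDs 2 changed places, the other pairing that passes the same check, the median log2 ratio would be 3.11 for untreated 1 and -0.0255 for untreated 2, and 16 of the 33 genes would be higher in the latter pair.

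**Figure D3:**
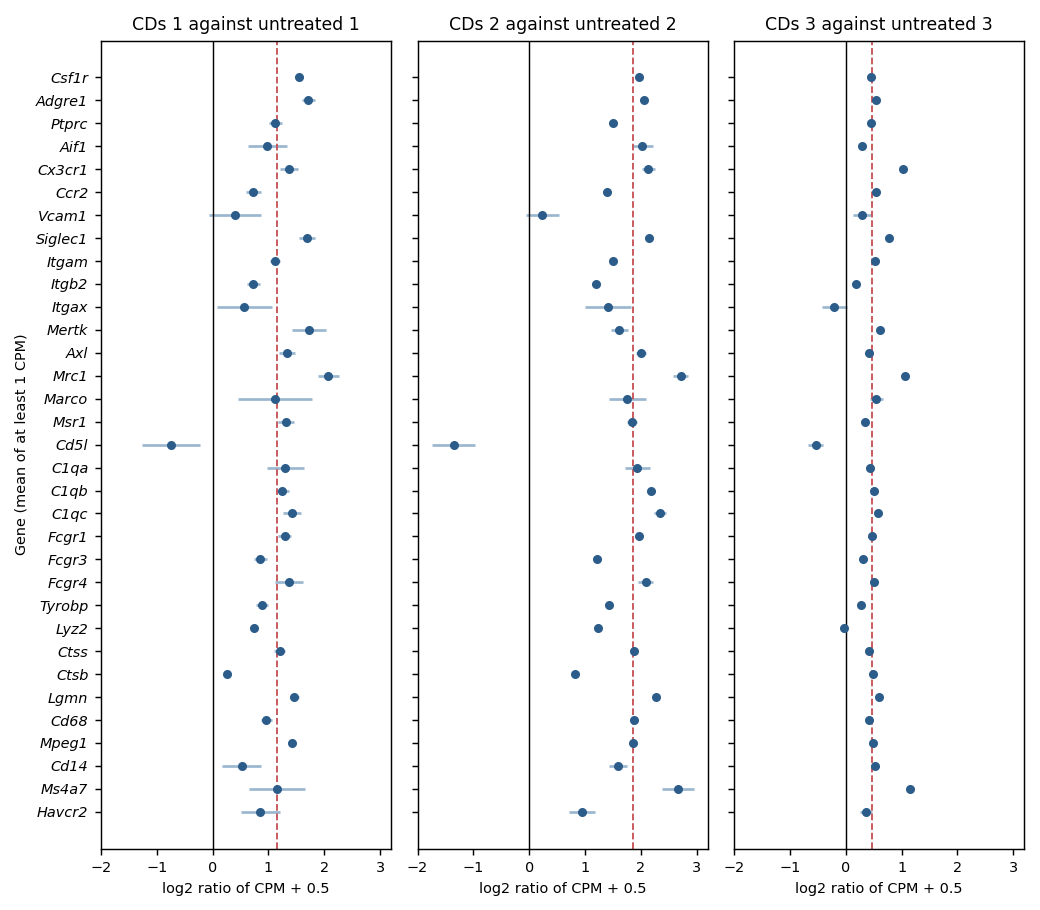
Log2 ratio of CPM + 0.5 between the CDs and the untreated library of the same number (horizontal, 1 panel per pair) for the 33 genes with a mean of at least 1 CPM (rows). Bars are counting standard errors, the dashed line is the median over the genes, and Cd5l is the one gene left of 0 in all 3 panels.

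With the replicate number as a block, edgeR again called 0 of the 33 at an adjusted p of 0.05 (all genes 0.0407%), with adjusted p-values from 0.0916 to 0.363. At an unadjusted p under 0.05 there were 29, of which Cd5l was lower and 28 were higher (all genes 18.0%), and at an adjusted p under 0.10 there were 5 (Cx3cr1, Siglec1, Itgam, Mrc1 and Ctsb), all higher, against 5.17% of all genes. The median log2 fold change was 1.16 (all genes 0.01), and standard errors were 0.12 to 0.45. Limma-voom with the block called 0 (all genes 0.0488%), while DESeq2 with the block called 27 higher (all genes 7.70%) and 1 lower, Cd5l (all genes 2.08%). The 5 not called by DESeq2 were Vcam1, Itgax, Msr1, Cd68 and Havcr2. The count in the blocked edgeR fit turned on which pairs entered. Pairs 1 and 2 alone gave 27 higher (all genes 12.2%) and 1 lower (all genes 2.97%), pairs 1 and 3 gave 8 higher (4.84%), and pairs 2 and 3 gave 0 (0.00%). These fits of 4 libraries leave 1 residual degree of freedom per gene, and the choice of pairs was made after seeing the data.

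Genes were then compared with the common profile, to see which departed from what the set did as a whole. A departure was a deviation of over 1 on the log2 scale and over 2 counting standard errors in at least 1 library, and 5 of 33 genes met it. Ctsb, Vcam1 and Itgax were flatter than the profile, being above it in untreated 1 and below it in the libraries numbered 3. Ms4a7 was steeper, and Cd5l differed by group.

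Cd5l deviated by 1.55, 1.4 and 0.04 untreated against -0.36, -1.81 and -0.80 with CDs (log2), so that all 3 untreated libraries stood above all 3 CDs libraries. Only C1qc, in the opposite direction and by at most 0.39, also had groups that did not overlap on this scale. These were 2 of 33 genes, beside 0.578% of all genes tested on the same scale. The profile was taken from the 33 genes themselves, so the share over all genes is not a like comparison. The log2 ratios of Cd5l were -0.75 ± 0.52, -1.35 ± 0.38 and -0.54 ± 0.13 (counting SE) in pairs 1 to 3, where the medians of the set were positive. Its counts were low, with 27, 63 and 299 untreated against 11, 19 and 205 with CDs. Its own levels overlapped between groups, with 6.41 ± 7.16 CPM (SD, n = 3) untreated and 3.82 ± 5.25 CPM (SD, n = 3) with CDs. Cd5l had a log2 fold change of -0.74 ± 1.35 without the block and -1.0 ± 0.27 with it (edgeR adjusted p = 0.994 and 0.104), and DESeq2 with the block gave an adjusted p of 0.0449. Without untreated 3 the unblocked value was 0.73.

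Mrc1 deviated from the profile by 0.05, -0.38 and -0.92 untreated against 0.95, 0.48 and -0.16 with CDs (log2), under the limit of 1, and each CDs library was above its untreated partner on this scale. Mrc1 and Cx3cr1 were chosen for description after their values were seen. The log2 ratios of Mrc1 were 2.07 ± 0.19, 2.71 ± 0.14 and 1.07 ± 0.05 (counting SE), the largest of the 33 genes in pairs 1 and 2. Cx3cr1 deviated by 0.25, -0.11 and -0.72 untreated against 0.44, 0.16 and 0 with CDs, with log2 ratios of 1.36 ± 0.16, 2.14 ± 0.11 and 1.02 ± 0.05. In an edgeR fit with the first principal component of the genes outside the set as a covariate, 2 of the 33 genes passed, Mrc1 at 1.15 ± 0.17 (edgeR adjusted p = 0.0189) and Cx3cr1 at 0.67 ± 0.09 (edgeR adjusted p = 0.00965), against 0.448% of all genes higher. The median of the 33 log2 fold changes in that fit was 0.0881. Cd5l had -1.74 ± 0.36 in that fit (edgeR adjusted p = 0.101). The component was computed from the same libraries, and the treated library scored higher on it in every pair. Mrc1 and Cx3cr1 had log2 fold changes of 1.48 ± 1.17 and 1.24 ± 1.24 in the unblocked fit, and 1.93 ± 0.38 and 1.52 ± 0.25 with the block (edgeR adjusted p = 0.0971 and 0.0916). Over the fits that left out 1 library the unblocked value of Mrc1 ran from 0.66 to 3.43 and that of Cx3cr1 from 0.07 to 3.13, both lowest without CDs 3.

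**Figure D4:**
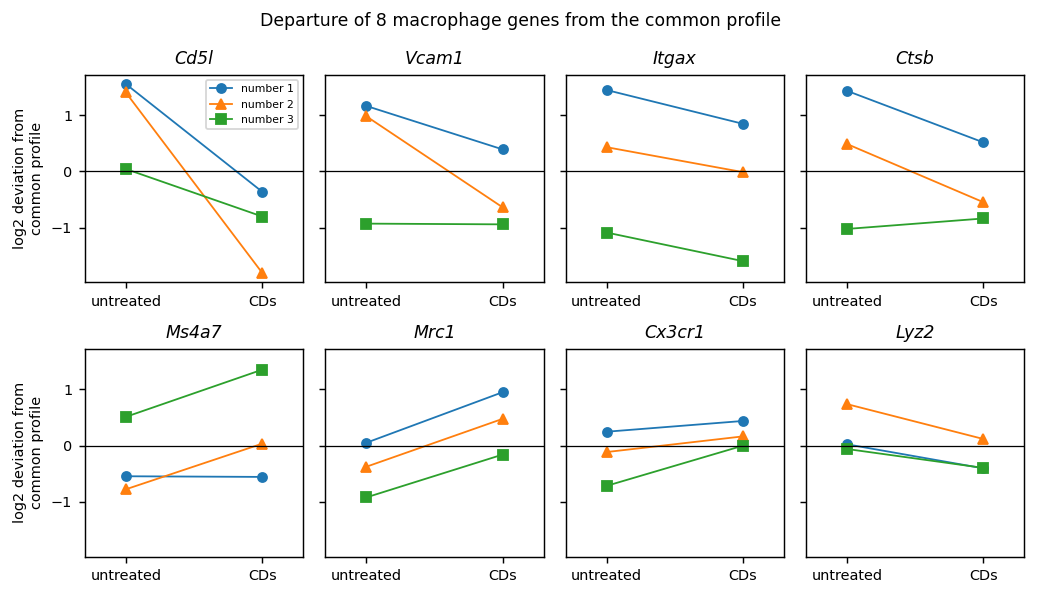
Log2 deviation of 8 genes from the common profile of the 33 genes (vertical) in untreated and CDs libraries (horizontal), with lines joining libraries of the same number. Cd5l lies lower in all 3 CDs libraries than in any untreated one, and Mrc1 and Cx3cr1 rise along every line. Vcam1, Itgax and Lyz2 also fall along every line, Vcam1 barely in number 3, with groups that overlap. Ctsb falls in numbers 1 and 2 only.

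Ms4a7 deviated by -0.54, -0.78 and 0.51 untreated against -0.56, 0.04 and 1.35 with CDs, with log2 ratios of 1.16, 2.67 and 1.15 in pairs 1 to 3 and a log2 fold change of 1.27 ± 2.03 without the block. Vcam1 deviated by 1.16, 0.98 and -0.93 untreated against 0.39, -0.64 and -0.94 with CDs, with a log2 fold change of 0.33 ± 0.99. Itgax deviated by 1.45, 0.43 and -1.09 untreated against 0.84, -0.01 and -1.60 with CDs, with a log2 fold change of 0.45 ± 0.83. Both rest on few reads, 17 counts of Vcam1 and 14 of Itgax in untreated 1. Ctsb deviated by 1.43, 0.49 and -1.02 untreated against 0.51, -0.55 and -0.84 with CDs. Relative to the median ratio of the set, 8 genes were higher in all 3 pairs (Adgre1, Cx3cr1, Siglec1, Mrc1, C1qb, C1qc, Fcgr4 and Lgmn) and 9 were lower in all 3 (Ptprc, Vcam1, Itgb2, Itgax, Cd5l, Fcgr3, Tyrobp, Lyz2 and Havcr2). The median was taken from the same genes, so in each pair genes lie on both sides of it by construction. Among the 8 are Cx3cr1 and Fcgr4, which monocytes also express. Among the 9 are Ptprc, Itgb2, Fcgr3, Tyrobp and Lyz2, which granulocytes and monocytes also express. Itgam, Cd14 and Ccr2, which such cells express too, were lower in pairs 1 and 2. In pair 3 they were slightly higher, by 0.04, 0.05 and 0.08 on the log2 scale. The ratios of the summed neutrophil markers were lower than those of the macrophage genes without Ctsb in all 3 pairs (for the latter 2.32-fold, 3.32-fold and 1.34-fold), and the part of such cells in these ratios was not tested. Lyz2 had log2 ratios of 0.74, 1.24 and -0.03, so that it was lower in CDs 3 than in untreated 3, as was Itgax (0.57, 1.41 and -0.20).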

How the data were processed

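The authors deposited 1 table of expected counts per gene, with 30.1% of the values not whole, and 1 of FPKM, a unit inferred from counts, totals and constant gene lengths. The submitters' processing notes list RSEM 1.2.12, DESeq2 1.4.5, HISAT2 2.0.4, Bowtie2 2.2.5 and the build GRCm38.p6, and give no roles. Deposited expected counts were rounded, filtered with filterByExpr (12283 of 17691 genes), TMM-scaled, and tested in R 4.3.3 by edgeR 4.0.16 (quasi-likelihood, robust, Benjamini-Hochberg adjusted p-values over all genes, threshold 0.05). DESeq2 1.42.0 and limma-voom (limma 3.58.1) were alternatives. The scripts were tested on simulated counts. Totals were 17695997 to 20066581 expected counts per library. Deposited FPKM served to compare levels between genes and to check the counts, with no test. Pairing by replicate number was taken from the data. Deviations from the group means correlated at 0.91, 0.34 and 0.94 for numbers 1 to 3 over 12283 genes, all above 0.1. However, untreated 2 correlated more with CDs 1 (0.68), and exchanging CDs 1 and CDs 2 passes the same limit. The first principal component took 88.5% of the variance of genes outside the set. Groups with a similar order of libraries along it would pass, so the check cannot show that same-numbered libraries shared a culture. Pair ratios used a pseudocount of 0.5 CPM, and their errors and the floor of 3 counts cover counting error alone, as PCR duplicates are not separate molecules. The genes and lists were chosen with earlier results of these data known. Values in all 6 libraries were printed for genes with a mean of at least 10 CPM or departing from the profile, and fold changes for those departing and the 12 with the highest mean FPKM. From each pathway list the 3 most abundant genes were named, with Csf1 and Il34 added as the ligands of CSF1R. Of the 10 genes most like the common profile, 1 is not reported here. Genes were matched to RefSeq by Entrez number (17570 of 17691).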

Additional observations from a re-analysis of the deposited data

How the results depend on the processing

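The 0 calls without the replicate block were unchanged by RLE size factors, by no filter on low counts, by DESeq2, by limma-voom, by leaving out any 1 library and by leaving out both libraries numbered 3. With the replicate block the number of genes called was 0 in edgeR and limma-voom and 28 in DESeq2, and in edgeR it was 28 without the libraries numbered 3, 8 without those numbered 2 and 0 without those numbered 1. With the first principal component as a covariate it was 2. The median log2 fold change ran from -0.74 to 3.23 when 1 library was left out, and it was 1.75 without both libraries numbered 3 (1.65 with the replicate block). The ratio of summed levels ran from 0.645 to 5.09 when 1 library was left out, and was 1.49 in FPKM and 1.56 without Ctsb. With CDs 1 and CDs 2 exchanged, the medians of pairs 1 and 2 were 3.11 and -0.0255. The 5 departing genes were 3 (Cd5l, Ctsb and Ms4a7) when a mean of at least 5 CPM was required, where Vcam1 and Itgax are no longer considered, and 1 (Cd5l) when the profile was replaced by a fit of each gene on the first principal component, which lets each gene have its own slope. Leaving out 1 library gave 4 to 6 departing genes, Cd5l, Vcam1 and Itgax among them each time. With the first principal component as a covariate the median was 0.0881, and 9 of the 33 log2 fold changes turned sign. These were Aif1 (-0.16), Itgb2 (-0.23), Havcr2 (-0.05), Vcam1 (-0.28), Tyrobp (-0.0799), Lyz2 (-0.33), Ctss (-0.12), Ctsb (-0.0368) and Cd68 (-0.0216), and the cause was not tested. When 1 library was left out, the range was -0.27 to 2.91 for Csf1r, -0.69 to 3.41 for C1qb, -0.71 to 3.67 for C1qc, -0.99 to 3.50 for Fcgr1, -0.32 to 2.02 for Fcgr3, -0.66 to 2.48 for Tyrobp, -0.78 to 2.18 for Lyz2, -1.26 to 3.61 for Ctss, -0.39 to 1.49 for Ctsb, -1.02 to 3.86 for Lgmn, -0.97 to 3.23 for Cd68, -0.99 to 3.43 for Mpeg1, -0.74 to 1.45 for Vcam1, -1.31 to 5.34 for Ms4a7 and -3.00 to 0.73 for Cd5l. The lowest value came without CDs 3 and the highest without untreated 3 in each of these 15 genes. The few reads of Vcam1, Itgax, Marco, Aif1, C1qa, Havcr2, Cd5l and Ms4a7 in untreated 1, at most 27, limit their ratios.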

Other observations

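Among 23 tested genes of island support and engulfment, 4 were lower in the CDs library of all 3 pairs, beside 26.2% of all genes tested. The 4 are named here after their values were seen. Abca1, a cholesterol exporter of macrophages and other cells, measured 9.4, 17.3 and 148 CPM untreated against 5.32, 11.6 and 71.3 CPM with CDs. Like the macrophage genes it was higher in the libraries numbered 3 than in the others, but each CDs library was below its partner, with log2 ratios of -0.77, -0.56 and -1.04. With the replicate block its log2 fold change was -0.84 ± 0.11 (edgeR adjusted p = 0.0916, DESeq2 adjusted p = 4.22e-05), and without it -0.98 ± 1.41 (edgeR adjusted p = 0.994). Icam4, an adhesion molecule of erythroblasts that contacts island macrophages, measured 154, 149 and 88 CPM untreated against 127, 129 and 67.1 CPM with CDs, with log2 ratios of -0.27, -0.21 and -0.39 (with the block, DESeq2 adjusted p = 0.0328 and edgeR adjusted p = 0.0916). Klf1 and the erythropoietin receptor gene Epor, both erythroid, had log2 ratios of -0.08, -0.22 and -0.44 and -0.10, -0.19 and -0.30. These 3 erythroid genes were lowest in the libraries numbered 3, where the macrophage genes were highest, and the part of cell composition in their ratios was not tested.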
